A study of Caenorhabditis elegans with 6 samples.

Results

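7 genes of Caenorhabditis elegans lost every antisense 22G read in males that lack the Piwi-class Argonaute PRG-1, while each carried between 395 and 910 such reads over the wild type libraries. They are mmab-1, nfm-1, lron-11, K03H9.3, F44E5.15, F41H10.12 and Y53F4B.16, 7 of the 22013 genes in the deposited transcript table (20222 protein-coding genes and 1791 pseudogenes). They were picked because no 22G read was counted on them in any prg-1 null library and many were counted in wild type. Their 22G values are therefore a description of the choice, with no test. The same holds for their other reads, which come from the same libraries and the same contrast.

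The libraries were made from small RNA of whole adult males, 20 to 30 per library, which were kept at 25 °C and taken 24 h after mid-L4, the last larval stage. The groups were prg-1 null (3 libraries) and wild type (3 libraries). The allele behind the null label is not given in the sources used here, and no other allele or agent is named for either group. The labels give replicate numbers but not whether the replicates came from separate cultures, so the spread between libraries may be partly technical.

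22G-RNAs are secondary small interfering RNAs made by RNA-dependent RNA polymerases on a target transcript, antisense to it and mostly starting with G. In the germline, PRG-1 carries 21U-RNAs, the piRNAs of the worm, which pair with transcripts and recruit this synthesis, and worm-specific Argonautes then bind the 22G-RNAs and keep many of the targets silent. Other 22G-RNAs arise without PRG-1, such as those bound by the Argonaute CSR-1 on germline-expressed genes. Here a 22G read is an antisense read of 21 to 23 nt that starts with G.

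Genome-aligned reads numbered 1133888 to 2205341 in the prg-1 null libraries and 973971 to 1799846 in the wild type libraries. 22G reads on protein-coding genes numbered 173698 to 373032 in prg-1 null and 69112 to 303560 in wild type, so each prg-1 null library held more 22G reads than 2 of the 3 wild type libraries. On prg-1 itself, 22G reads numbered 7, 15 and 9 in the prg-1 null libraries and 143, 441 and 88 in the wild type libraries. These are siRNA reads and do not measure the prg-1 mRNA. Sense reads of 15 sperm marker genes were also lower in prg-1 null, at 141 to 214 per 1000000 genome-aligned reads, against 476 to 1609 in wild type, with none of the 15 at 0 in all libraries. Their summed 22G reads ran the other way, at 652 to 1112 per 1000000 in prg-1 null and 118 to 273 in wild type. The part of this in the values below was not tested. In whole animals, fewer cells of a type and less RNA per cell cannot be told apart.

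Summed over the 7 genes, 0 of 834919 22G reads in prg-1 null fell on them, which allows a share of up to 0.000359%, against 3745 of 485218 (0.772%) in wild type. In the 3 wild type libraries the 7 genes held 898, 2340 and 507 reads, or 0.798%, 0.771% and 0.734% of the 22G reads of each library. The share was thus nearly equal in the 3 wild type libraries although their depth differed several-fold. Levels below are CPM, reads per 1000000 22G reads of the tested genes after TMM scaling, and they describe single genes across libraries, since a long transcript can collect more reads than a short one. For a gene with no read in prg-1 null, a fold is a lower bound against 3 counts over the 3 prg-1 null libraries, equal to 4.13 CPM. Intervals and bounds cover counting error only.

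mmab-1 encodes the worm homolog of the adenosyltransferase that makes adenosylcobalamin, the vitamin B12 cofactor of methylmalonyl-CoA mutase. It had 0 reads in each prg-1 null library, against 104, 285 and 71 reads in the wild type libraries. Its wild type level was 969, 1216 and 994 CPM, a mean of 1059.8 ± 136 (SD, n = 3), so that mmab-1 was at least 256-fold lower in prg-1 null. At its wild type level 769 reads would have been counted in the 3 prg-1 null libraries together.

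nfm-1 encodes the worm homolog of merlin, the product of the human NF2 gene, a FERM domain protein that links the cell membrane to the cytoskeleton. It had 0 reads in each prg-1 null library, against 84, 299 and 61 in the wild type libraries, or 783, 1276 and 854 CPM in wild type (971 ± 267, SD, n = 3). Wild type replicate 2 had the highest CPM for this gene, as it did for every other gene described here. The bound was at least 234.97-fold lower in prg-1 null.

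lron-11 is named as a gene for an extracellular protein made of leucine-rich repeats, a fold that many surface proteins use to bind partners. It had 0 reads in each prg-1 null library, against 138, 304 and 71 in wild type. The wild type CPM were 1286, 1297 and 994 (1192 ± 172, SD, n = 3), and lron-11 was at least 289-fold lower in prg-1 null. As deposited, all of its 22G reads were on the isoform Y71F9B.8a, with 0 on its other isoforms, and nfm-1 likewise had reads on only 1 of its 3 isoforms. How reads shared by isoforms were assigned is not given, so this does not show which isoform the reads came from.

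K03H9.3 is annotated as a protein-coding gene with no role given here. It had 0 reads in each prg-1 null library, against 217, 597 and 96 in wild type. Its wild type CPM of 2023, 2548 and 1344 (1971 ± 604, SD, n = 3) spread the most of the 7 genes, the highest library standing 1.90-fold above the lowest. With at least 477-fold lower 22G in prg-1 null, its bound was the largest of the 7, and 1431 reads would have been counted in prg-1 null at its wild type level.

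F44E5.15 and F41H10.12 are 2 further protein-coding genes with no role given here. F44E5.15 had 0 reads in each prg-1 null library, against 139, 315 and 64 in wild type, or 1296, 1344 and 896 CPM (1179 ± 246, SD, n = 3). F41H10.12 had 0 reads in each prg-1 null library, against 124, 307 and 74 in wild type, or 1156, 1310.1 and 1036 CPM (1167 ± 138, SD, n = 3). Both were thus alike in their wild type means, and their bounds were at least 285-fold lower for F44E5.15 and at least 282-fold lower for F41H10.12 in prg-1 null.

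Y53F4B.16 is counted as protein-coding in the deposited table but annotated as a pseudogene, a gene copy taken to make no working protein, in the Ensembl and RefSeq annotations used here. It had 0 reads in each prg-1 null library, against 92, 233 and 70 in wild type. Its wild type CPM of 858, 994 and 979.8 (944 ± 75.1, SD, n = 3) spread the least of the 7, with the highest library 1.16-fold above the lowest. It was at least 228-fold lower in prg-1 null. These bounds fall with fewer libraries, because the same 3 counts are set against less depth. Without prg-1 null replicate 3, the bound was 280.1-fold for K03H9.3 and 134-fold for Y53F4B.16, and without prg-1 null replicate 2 it was 302.5-fold and 145-fold.

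**Figure D1:**
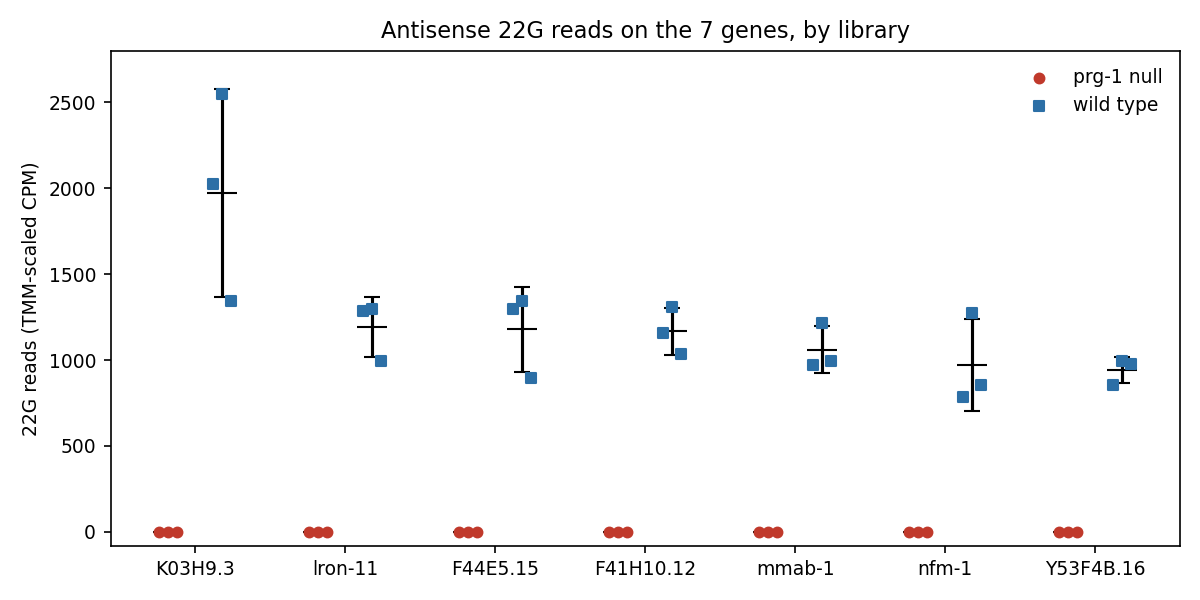
TMM-scaled CPM of antisense 22G reads (vertical axis) on each of the 7 genes in the prg-1 null libraries (red circles) and the wild type libraries (blue squares), with the wild type mean and SD as black bars. Every prg-1 null library is at 0 for every gene, and the wild type libraries lie between 783 and 2548 CPM.

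Among the 2879 genes with enough 22G reads to test, 938 (32.6%) were called lower in prg-1 null by edgeR's quasi-likelihood test at an adjusted p of 0.05. All 7 genes were tested and are among the 938. The groups did not overlap, with prg-1 null lower, for 34.4% of the tested genes, and for all 7. No 22G read in any prg-1 null library was found for 209 of the tested genes (7.26%), the class to which the 7 belong by choice.

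The choice also kept genes with much 22G-RNA in wild type. Among the 209, the 7 rank first and from the third to the eighth place in wild type CPM. The gene in the second place, fbxc-43, is named for an F-box protein family and had 0, 0 and 0 reads in prg-1 null, against 189, 405 and 108 in wild type (1667 ± 136 CPM, SD, n = 3). Just below the lowest of the 7 came T27F6.8, with 0, 0 and 0 reads in prg-1 null, against 62, 218 and 50 in wild type (736 ± 179 CPM). F22H10.1 and csp-3, a caspase-family gene, missed the choice by a single read. F22H10.1 had 0, 1 and 0 reads in prg-1 null, against 239, 449 and 129 in wild type, and csp-3 had 0, 0 and 1 in prg-1 null, against 191, 375 and 100 in wild type. Between 1 and 3 reads in prg-1 null were counted on 19 genes with a wild type CPM at least that of Y53F4B.16, so an exact 0 divides genes that differ by a few reads. Among genes outside the 7, the 22G profiles nearest to them over the 6 libraries, by Euclidean distance on log2(CPM + 1), were those of fbxc-43 and T27F6.8. The distance rests on the same values by which the 7 were chosen. These are also the 2 highest other genes without a prg-1 null read, so their closeness follows from the choice and is no finding. fbxc-43 was nearest to K03H9.3 (distance 0.618), lron-11 (0.862), F41H10.12 (0.909) and F44E5.15 (0.947), and T27F6.8 was nearest to nfm-1 (0.693), Y53F4B.16 (0.753) and mmab-1 (0.980).

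**Figure D2:**
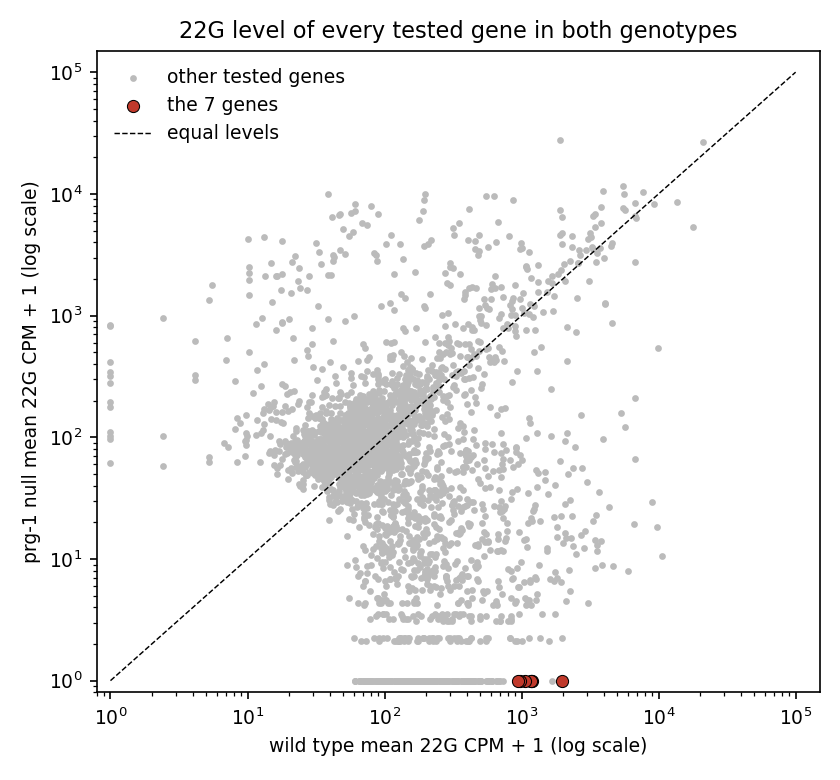
Mean 22G CPM + 1 of each tested gene in prg-1 null (vertical) and in wild type (horizontal), both on log axes, with the 7 genes in red and a dashed line at equal levels. The 7 lie on the row of genes without a prg-1 null read, with fbxc-43 as the grey point between K03H9.3 and the rest.

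Per kilobase of counted transcript, the order of the genes in wild type changed. F41H10.12, whose counted transcript is the shortest at 717 bases, carried the most, at 1628 ± 192 CPM per kb, and nfm-1, the longest at 2247 bases, the least, at 432 ± 119 CPM per kb (SD, n = 3). Between them stood K03H9.3 (1325 ± 406), mmab-1 (1256 ± 161), Y53F4B.16 (1136 ± 90.4), F44E5.15 (1129 ± 236) and lron-11 (647 ± 93.5), all in CPM per kb of wild type. Neighbours in this order overlapped in their wild type libraries except at 1 step, between F44E5.15 (858 to 1288) and lron-11 (539.5 to 704). nfm-1 and lron-11 thus stood below the other 5 genes in density of 22G reads, and the ranges of the upper 5 overlapped between neighbours. Within each wild type library, F41H10.12 still stood above K03H9.3 (1612 against 1359, 1827 against 1712 and 1445 against 903 CPM per kb). lron-11 likewise stood above nfm-1 in each library. The other neighbours among the upper 5 changed order between libraries. The median over the 7 was 1136 CPM per kb, against 173 for the other genes without a prg-1 null read, 188 for the other genes called lower and 65.7 for the other tested genes. High levels were part of the choice, so this is no finding. The transcripts were not of unusual length, with a median of 1044 bases (717 to 2247), against 1062.5 for the other genes without a prg-1 null read and 1523 for the other tested genes.

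Antisense reads outside the 22G definition went with the 22G reads. On the 7 genes together, 5 such reads were counted in prg-1 null, against 1680 in wild type, and all antisense reads together numbered 5 in prg-1 null, against 5425 in wild type. Of 2802 genes tested on these other antisense reads, 14.5% were called lower in prg-1 null and 9.06% higher, and all 7 genes are among the lower. The groups did not overlap, with prg-1 null lower, for 19% of those tested, and for all 7 genes. Nothing is read from these counts, because the 7 were chosen on the same contrast.

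F41H10.12 carried the most of these reads, with 0 in each prg-1 null library, against 119, 338 and 97 in wild type, at least 252-fold lower in prg-1 null. K03H9.3 had 0 in each prg-1 null library, against 92, 285 and 49 in wild type, at least 172-fold lower. mmab-1 had 0 in each prg-1 null library, against 32, 102 and 31 in wild type, at least 76.4-fold lower. These 3 genes and F44E5.15 had no antisense read of any length or first base in prg-1 null. F44E5.15 had 33, 84 and 26 in wild type, at least 66.1-fold lower in prg-1 null.

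The other 3 genes kept a few antisense reads. lron-11 had 1, 0 and 0 in prg-1 null, against 32, 92 and 29 in wild type, and the 1 read was 22 nt long and started with A. nfm-1 had 0, 1 and 2 in prg-1 null, against 51, 87 and 18 in wild type, and its 3 reads were 16 nt or 24 nt long and started with A. Y53F4B.16 had 0, 0 and 1 in prg-1 null, against 29, 45 and 9 in wild type, and the 1 read was 20 nt long and started with G, outside the length range by 1 base. From the pooled counts, wild type over prg-1 null came to 199 for lron-11 (95% interval 35.2 to 7909), 67.6 for nfm-1 (22.7 to 331) and 108 for Y53F4B.16 (18.8 to 4314). These intervals cover counting error only, and they are wide because the prg-1 null side rests on 1 or 3 reads.

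**Figure D3:**
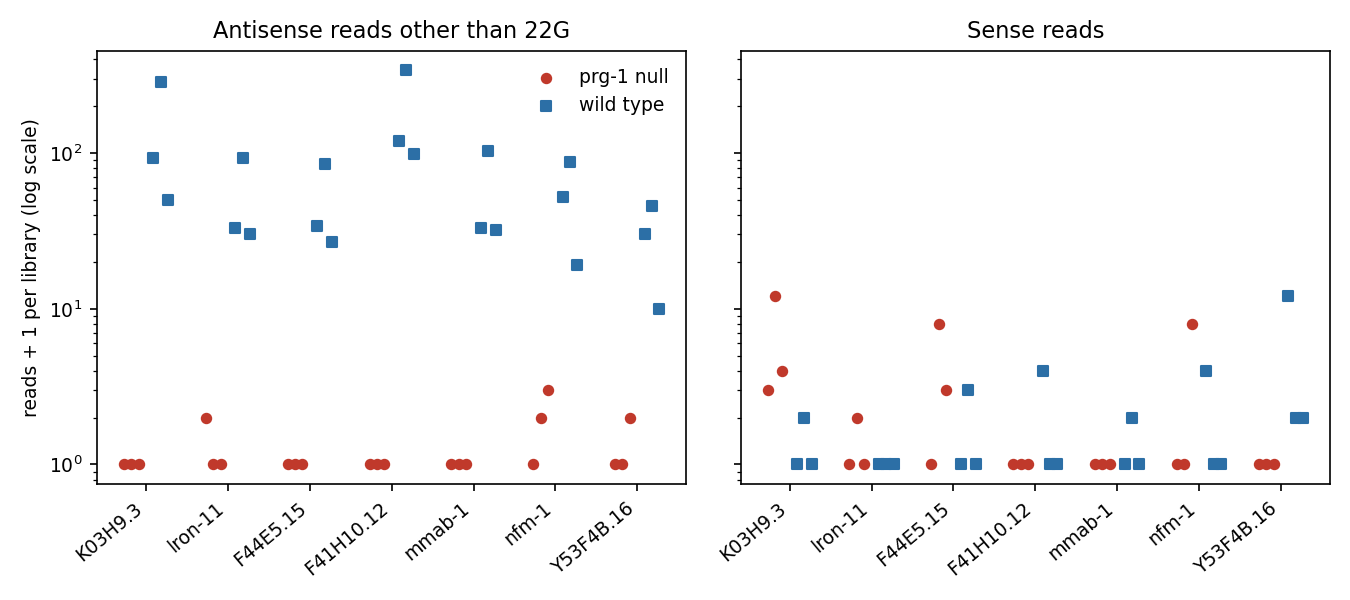
Reads + 1 per library (log axis) on the 7 genes, for antisense reads other than 22G (left panel) and sense reads (right panel), prg-1 null in red left of wild type in blue. Other antisense reads reach at most 2 per library in prg-1 null and 338 in wild type, whereas sense reads reach at most 11 in either genotype.

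Sense reads, which could be pieces of the mRNA itself, were too few on all 7 genes for a test, with 33 in prg-1 null and 23 in wild type over all 7 and all libraries. K03H9.3 had 2, 11 and 3 in prg-1 null, against 0, 1 and 0 in wild type. Most of its prg-1 null reads were of 22 nt or 23 nt starting with A (13 reads), and 2 were of 55 nt. F44E5.15 had 0, 7 and 2 in prg-1 null, against 0, 2 and 0 in wild type, and its prg-1 null reads were 5 of 21 nt and 4 of 22 nt, all starting with G. nfm-1 had 0, 0 and 7 in prg-1 null, against 3, 0 and 0 in wild type. In these 3 genes 1 prg-1 null library held most of the reads.

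Y53F4B.16 had 0 in each prg-1 null library, against 11, 1 and 1 in wild type. lron-11 had 1 sense read in all (prg-1 null replicate 2), mmab-1 had 1 (wild type replicate 2), and F41H10.12 had 3 (wild type replicate 1). The groups did not overlap for K03H9.3, with prg-1 null higher, and for Y53F4B.16, with prg-1 null lower. Among the 687 genes tested on sense reads, the groups did not overlap for 21.8% with prg-1 null higher and for 20.7% with prg-1 null lower, so 1 gene in each direction is no result about the 7. At these counts a difference in sense reads was not detectable, and the mRNA of the 7 genes was not measured.

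In wild type, most antisense reads on 6 of the 7 genes were 22G reads. The 22G share of all antisense reads was 82.6% on Y53F4B.16, 78.4% on F44E5.15, 77.0% on lron-11, 74.0% on nfm-1, 73.6% on mmab-1 and 68.1% on K03H9.3. Over all protein-coding genes pooled it was 43.9%. The median of the 7 was 74.0%, beside a median of 72.8% on the other genes without a prg-1 null read, 72.3% on the other genes called lower and 59.7% on the other tested genes, so the 7 resemble the wider set of genes with less 22G-RNA in prg-1 null.

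F41H10.12 stood apart from the other 6, with 505 of 1059 antisense reads in the 22G class (47.7%, exact 95% interval 44.6% to 50.7%). The share was 51.0%, 47.6% and 43.3% in the 3 wild type libraries, below every library of every other gene of the 7. Reads of 21 to 23 nt that start with another base made up 41.1% of its antisense reads, a share at the 95.6th percentile among the other genes without a prg-1 null read. Those starting with C, in particular, made up 6.17%, 15.7% and 17.0% of its antisense reads in wild type replicates 1, 2 and 3. All of these reads, whatever their first base, were absent from the prg-1 null libraries.

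Outside the 22G class, reads of 21 to 23 nt starting with A were the most frequent kind in wild type. They made up 48.4% of the other antisense reads on F41H10.12 and up to 61.4% on lron-11, with K03H9.3, F44E5.15, mmab-1 and nfm-1 between them. Y53F4B.16 differed, with 25 of its 83 reads of that kind (30.1%) and 34 of 20 nt or shorter. Reads of 26 nt starting with G, the length and first base of another class of worm siRNA (26G-RNAs), numbered 1 on nfm-1 and 0 on the other 6 genes.

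**Figure D4:**
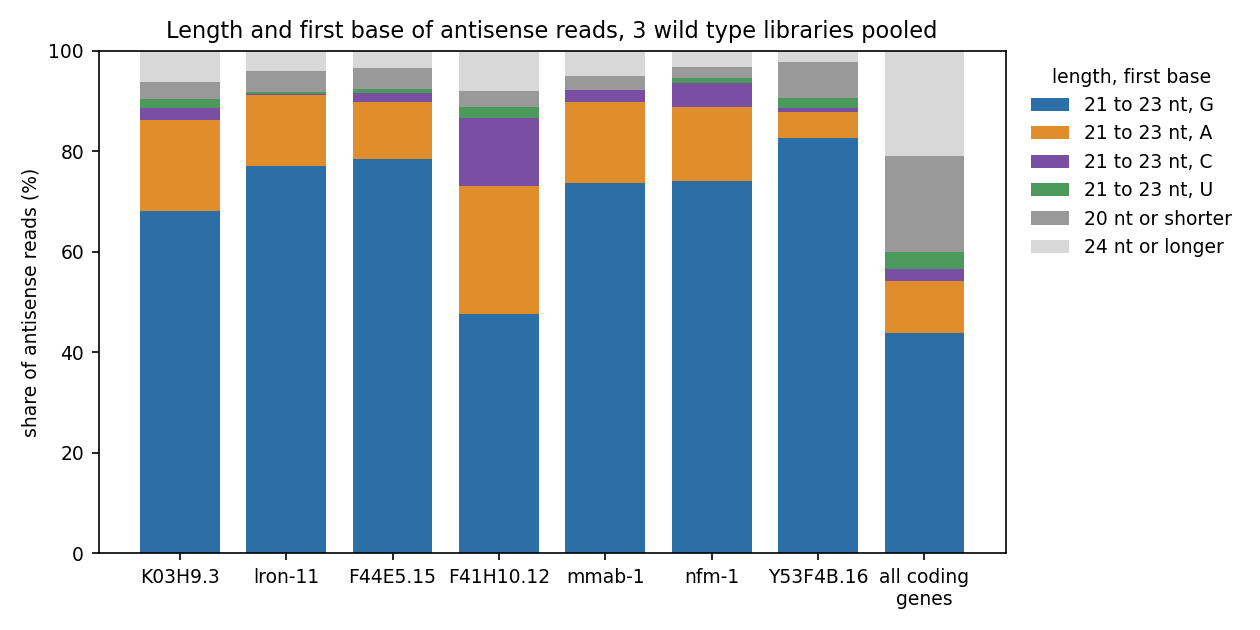
Share of antisense reads in wild type (3 libraries pooled, percent) by length and first base, for the 7 genes and for all protein-coding genes. The 22G class (blue) makes up 47.7% on F41H10.12 and 68.1% to 82.6% on the other 6, against 43.9% of the pooled reads of all protein-coding genes. The median over the other tested genes, taken gene by gene, was 59.7%.

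Within the 22G class, 22 nt was the most common length on all 7 genes in the pooled wild type reads. nfm-1 had the highest 22-nt share, 77.9% (exact 95% interval 73.8% to 81.7%), and lron-11, F44E5.15 and K03H9.3 had the lowest, at 56.7%, 56.8% and 57.0%, beside 63.6% over all protein-coding genes. On nfm-1 the share was 83.3%, 75.9% and 80.3% in the 3 wild type libraries, above that of all protein-coding genes in each. Wild type replicate 3, the shallowest library, held a different mix on some genes. Its 22-nt share was 37.5% on F44E5.15, against 64.0% and 57.5% in replicates 1 and 2, and its 21-nt share was 40.8% on lron-11, against 26.8% and 23.7% in replicates 1 and 2.

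The 7 genes lie on 4 chromosomes of the WBcel235 assembly, 3 of them on chromosome II, and no pair of them is adjacent. K03H9.3 (WBGene00019372) was counted on the plus strand of chromosome II from 6423112 to 6424925, F44E5.15 (WBGene00206377) on the plus strand from 11771978 to 11774039, and Y53F4B.16 (WBGene00013162) on the minus strand from 15052085 to 15055718. mmab-1 (WBGene00016144) lies on the minus strand of chromosome III from 4920442 to 4921747, and nfm-1 (WBGene00003593) on the plus strand from 6159842 to 6164588. lron-11 (WBGene00022129) lies on the minus strand of chromosome I from 2735345 to 2742508, and F41H10.12 (WBGene00018322) on the plus strand of chromosome IV from 5385320 to 5386080. The counts were made on spliced transcripts, so a read can come from any exon, coding or untranslated, and its place in the transcript is not in the table.

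The counted spans of 2 of the 7 reach well outside the gene in the Ensembl annotation. The counted span of F44E5.15 starts 686 bases outside the annotated gene, with a counted transcript of 1044 bases, against 835 exon bases in Ensembl. The counted span of Y53F4B.16 reaches 1145 bases outside the annotated gene. 22G reads given to these genes may thus come partly from sequence that is no longer assigned to them, and their values per kilobase depend on the counted length. lron-11 has an annotated noncoding RNA on the opposite strand, Y71F9B.22, that shares 112 exon bases with it, and Y71F9B.2 on the opposite strand shares 19. A sense read of such a neighbour cannot be told from an antisense read on lron-11 in the shared bases. The exons of the other 6 genes share no base with an annotated gene on the opposite strand. Smaller differences in the model concern the other 5 genes. The counted transcript of nfm-1 has 2247 bases, against 2637 exon bases in Ensembl, that of F41H10.12 has 717, against 775, that of K03H9.3 has 1488, against 1509, and that of lron-11 has 1842, against 1834. That of mmab-1 has 844 bases in both, although its annotated gene reaches to 4922114, beyond the 4921747 of the counted span. nfm-1 shares 17 exon bases with F42A10.9 on its own strand.

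No annotated piRNA locus lies inside any of the 7 genes. The nearest one to F41H10.12, 21ur-8039, is 60 bases away, and the nearest ones to the other genes are 8825 (nfm-1) to 210801 (lron-11) bases away. 21U-RNAs act on transcripts from any place in the genome, so these distances say nothing on which piRNAs pair with the 7 transcripts.

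**Figure D5:**
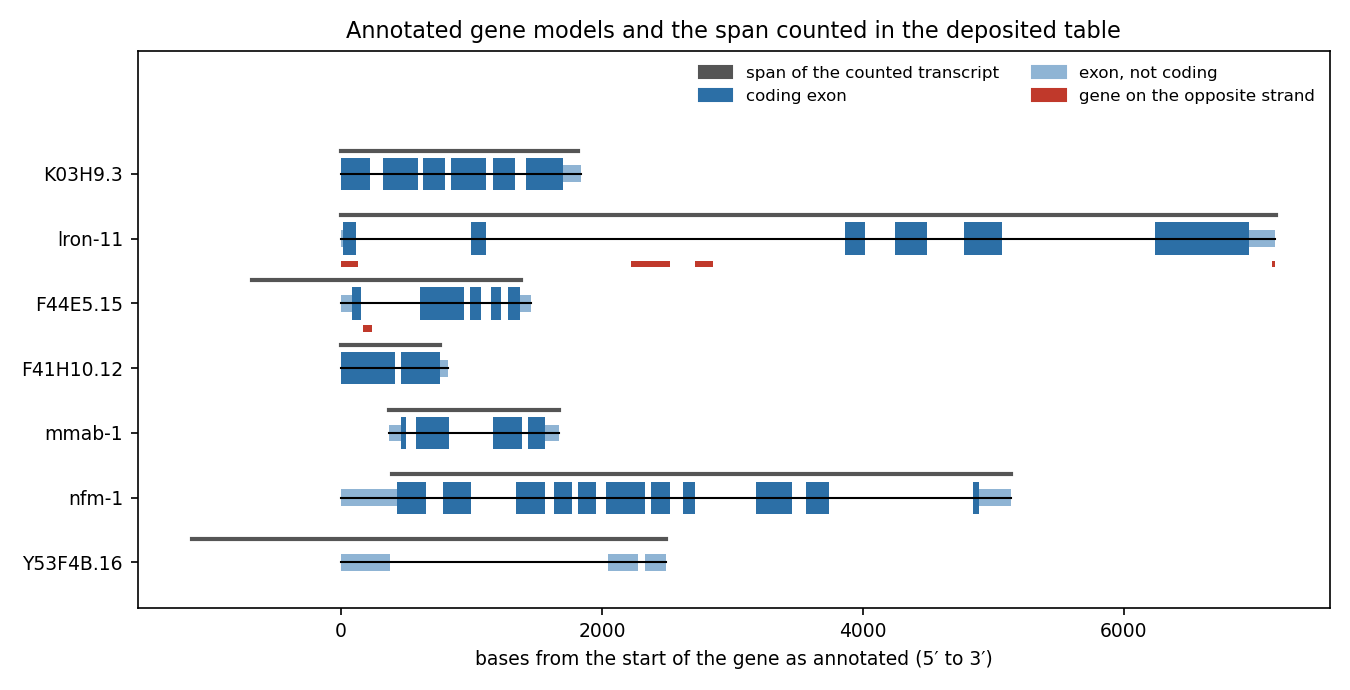
Exons of the 7 genes in the Ensembl annotation (coding in dark blue, not coding in light blue), drawn to scale in bases from the annotated start, with the counted span as a grey line and opposite-strand genes in red. The counted spans of F44E5.15 and Y53F4B.16 start upstream of the annotated genes, by 686 and 1145 bases.

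The relatives of the 3 genes with a known role were compared on 22G reads, as lists drawn up from general knowledge of each pathway. Earlier results of these data were known when these lists and the list of 22G-RNA genes below were chosen. Their counts and adjusted p values are therefore a description and no independent test. For mmab-1, 22 genes of propionate breakdown and vitamin B12 use were listed. Of these, 7 had enough 22G reads to test, and 0 were called in either direction by edgeR (45% over all tested genes), 0 had an unadjusted p under 0.05, and DESeq2 called 0 of the 13 it tested. Over the 7 tested genes of this list, the log2 fold changes had a median of 0.73, beside -0.11 over all tested genes. The 0 did not hold in every setting: 1 gene was called higher with reads summed over isoforms, 1 higher without prg-1 null replicate 1, and 1 lower on all antisense reads. The other 15 genes of the list carried too few 22G reads to pass the filter of the edgeR test.

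For lron-11, 25 genes for extracellular leucine-rich repeat proteins were listed, 5 were tested, and 3 of these fell (edgeR, adjusted p under 0.05, against 32.6% lower over all tested genes). The 2 others had an unadjusted p above 0.05, and DESeq2 called 3 lower and 0 higher of the 10 it tested. lron-13 also had no 22G read in prg-1 null, with 0 in each library, against 11, 82 and 18 reads in wild type (234.8 ± 125 CPM, SD, n = 3), at least 56.8-fold lower in prg-1 null (edgeR adjusted p = 2.28e-06). pan-1, a transmembrane leucine-rich repeat gene, had 1, 3 and 0 reads in prg-1 null, against 98, 381 and 90 in wild type, a log2 fold change of -7.67 ± 0.66 (SE; edgeR adjusted p = 1.92e-09). lron-4, named after its values were seen as the only other gene called, had 0, 2 and 0 reads in prg-1 null, against 16, 51 and 11 in wild type (log2 fold change -5.70 ± 0.93, edgeR adjusted p = 1.67e-05). Prg-1 null replicate 2 held most of the prg-1 null reads on both, and without it the fold changes were -8.78 for pan-1 and -7.97 for lron-4 on the log2 scale. The median of the 5 tested was that of lron-4, -5.70.

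For nfm-1, 15 other FERM domain genes were listed, 4 were tested, and 2 rose (edgeR), against 12.4% higher over all tested genes. The other 2 had an unadjusted p above 0.05, and DESeq2 called 2 higher and 1 lower of the 9 it tested. frm-1 had 4767, 7051 and 8247 22G reads in prg-1 null, against 190, 495 and 131 in wild type, with means of 27911 ± 1605 CPM in prg-1 null males and 1906 ± 182 CPM in wild type (SD, n = 3 each; edgeR adjusted p = 3.83e-11). tln-1, the talin gene, which joins integrins to actin, had 1017, 1692 and 2168 reads in prg-1 null, against 5, 11 and 3 in wild type (edgeR adjusted p = 3.01e-12). Both gained 22G-RNA in prg-1 null. nfm-1 was chosen for having none left there, so its contrast with these relatives is no finding. Without a filter on low counts 14 of the 15 were tested and 2 were called lower. The list counts move likewise when a library is left out, with 2 or 3 higher and 0 to 2 lower.

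A further list held 38 gene names of the 22G-RNA pathway, with genes that act on piRNAs, such as prg-1 and parn-1, among them. Of these names, 36 were in the table, 20 were tested, and 5 fell in prg-1 null (edgeR), against 32.6% lower over all tested genes. A further 2 had an unadjusted p under 0.05, and DESeq2 called 5 lower and 0 higher of the 32 it tested. The 5 called by edgeR were prg-1, rde-11, parn-1, glh-1 and hrde-1. Of these, prg-1 is the mutated gene itself, and its allele is not given in the sources used here. rde-11, which takes part in the amplification of siRNAs, had 1, 6 and 1 reads in prg-1 null, against 80, 177 and 35 in wild type (log2 fold change -5.84 ± 0.64, edgeR adjusted p = 7.52e-08). Without prg-1 null replicate 2 its change was -7.04. parn-1, a nuclease that trims piRNAs, had 15, 32 and 18 reads in prg-1 null, against 279, 541 and 96 in wild type. glh-1, a germ granule helicase, had 31, 36 and 29 in prg-1 null, against 168, 294 and 40 in wild type. hrde-1, a nuclear Argonaute that binds 22G-RNAs, had 45, 120 and 95 in prg-1 null, against 131, 263 and 31 in wild type, so that its groups overlapped, and its call did not hold without wild type replicate 1 (adjusted p = 0.0895) or replicate 2 (0.0801). On all antisense reads its log2 fold change was -0.58 (edgeR adjusted p = 0.288), against -1.41 on 22G reads. parn-1, glh-1 and hrde-1 were named after their values were seen. None of these 5 genes was without 22G reads in prg-1 null, as 7.26% of all tested genes were. The 7 genes described here were chosen for having none, so this is no difference found between the groups of genes.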

How the data were processed

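Small RNA of whole adult males was sequenced in 3 prg-1 null and 3 wild type libraries. Per the labels' protocols, RNA was treated with a pyrophosphatase so that RNAs with a 5′ triphosphate could be cloned. The submitters' processing notes name cutadapt 3.7, FastQC 0.12.0 and the build WBcel235. For the aligner, its allowed mismatches and the handling of multiply aligned reads, the setting is not given in the sources used here. As deposited, the values are expected counts in the sense that this assignment is unstated: per the file headers, the authors counted trimmed reads on 35862 transcripts by strand, with each count also listed by read length and first base. They were whole numbers without normalization, so that rounding altered none of them, and in all 430356 cells this list added up to the count. Reads shared with near-identical genes are uncertain to that extent.

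22G reads on protein-coding genes were the antisense reads with a 5′ G and a length of 21 to 23 nt, on the isoform of the highest mean. The comparison of genotypes used edgeR 4.0.16 in R 4.3.3, by glmQLFTest after filterByExpr and TMM, with Benjamini-Hochberg adjustment over all tested genes and a threshold of 0.05, and the fit was tested on simulated data. Alternatives were DESeq2 1.42.0, other scalings, filters, isoforms and read classes, a replicate block, and each library left out. The bounds with a prg-1 null library left out were chosen after seeing the data. Sums and figures used Python 3.11.15, pandas 2.3.3, scipy 1.17.1 and matplotlib 3.10.9. Compositions were set beside genes with at least 50 antisense reads in wild type, and intervals are exact binomial (95%) or, for ratios of counts, exact conditional on their sum. Gene models came from an Ensembl annotation of the same assembly.

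The 7 genes and the gene lists were chosen with earlier results of these data known. The text names all 7 genes, the nearest profile to each, the 2 highest genes without a 22G read and the 2 highest with 1 such read in prg-1 null, and up to 2 called genes per list and direction. Genes named beyond this rule are marked. Markers of oocyte and yolk (sense reads at 25.8 to 48.1 per 1000000 genome-aligned reads in prg-1 null and 15.0 to 82.1 in wild type) and of muscle (26.5 to 61.8 in prg-1 null and 27.2 to 38.3 in wild type) overlapped between genotypes. Sense reads of intestine, epidermis and neuron markers stayed at 12.6 or less. Those of neuron markers did not overlap (0.907 to 3.60 in prg-1 null and 0 to 0.815 in wild type), at 6 reads or fewer per library. The 22G reads of intestine (2.27 to 7.06 against 0 to 2.05) and epidermis markers (5.29 to 8.16 against 0 to 1.03) were higher in prg-1 null without overlap. Those of oocyte and yolk, muscle and neuron markers overlapped.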

Additional observations from a re-analysis of the deposited data

How the results depend on the processing

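The 7 genes had no 22G read in prg-1 null with any isoform or with 22-nt reads alone. This follows from the choice and is no support for it. The 22-nt reads are part of the 22G class, and only lron-11 and nfm-1 had more than 1 isoform. Of the alternative counts of called genes, 72 of 76 were within 1.5 times the main ones. Genes lower on other antisense reads numbered 670 without a filter (407 with it). Genes higher on sense reads numbered 47 with library-size scaling and 51 without a filter (79 in the main comparison); the cause was not tested. With 1 library left out, genes lower numbered 785 to 1204 (22G), 374 to 498 (other antisense) and 57 to 127 (sense, 57 without wild type replicate 1), and genes higher 288 to 401, 178 to 272 and 61 to 94. DESeq2 called 1190 genes lower and 323 higher on 22G reads. The median over the 7 genes within each wild type library averaged 1149 CPM, 1079 to 1138 CPM with a wild type library left out, 114 per 1000000 genome-aligned reads and 620 CPM among all antisense reads, the last 2 on other denominators by construction. Single levels moved too. On 22-nt reads alone, nfm-1 had 1255 CPM in wild type (971 in the main comparison) and Y53F4B.16 had 1035 (944). Without wild type replicate 3, Y53F4B.16 had 859 CPM. Deviations of same-numbered libraries from their group means were nearly uncorrelated over the tested genes (-0.0305, 0.0419 and 0.0023). With 3 libraries per group, this cannot show whether same-numbered libraries were prepared together. With the replicate block, 890 genes were lower and 306 higher on 22G reads, 347 and 202 on other antisense reads, and 75 and 65 on sense reads, and hrde-1 was no longer called (adjusted p = 0.0579). The planned search for piRNA pairing in the 7 transcripts was not run. At 3 counts over 3 libraries, a residual level under 4.13 CPM on any of the 7 genes was not detectable in prg-1 null.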
